A study of Mus musculus with 12 samples.

Results

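The 30 genes described here carry out or control the synthesis of cholesterol and fatty acids, and they were taken by symbol from a count table of mouse skin that lists 55453 genes. They comprise 8 genes of the mevalonate steps, 11 of the steps from squalene to sterol, 6 genes that control the pathway through the SREBP transcription factors, and 5 genes of fatty acid synthesis. All 30 were found in the table and all 30 passed the filter on low counts, as did 18311 genes in all, with between 92 and 28401 counts for a member in a mouse. In the bulk skin of WT mice, 16 of the 30 were lower after bleomycin and 0 were higher, when 14.1% of all genes tested were lower and 19.8% higher. With the level of hair follicle genes as a covariate the count was 0, when 0.0109% of all genes were lower. In Thy-1 KO mice 0 of the 30 passed the same test, as few genes did in all (0.306%), and 8 passed, all higher, when 2 KO mice with high levels of hair genes were left out and 13.5% of all genes were higher. The fold change was higher in KO than in WT mice for 27 of the 30, and for 8633 of all 18311 genes tested. That difference passed the edgeR test for 0 members and for 0% of all genes, while DESeq2 called 13 members, against 7.65% of the genes it tested.

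RNA from the skin of 12 mice was sequenced, with 3 mice in each of 4 groups. The strain is C57/BL6 in the labels, and the methods describe female KO mice of between 8 and 12 weeks, with littermates as controls. WT PBS mice were wild type and were injected with PBS, and WT BLM mice were wild type and were injected with bleomycin, a drug that causes fibrosis of the skin, at 10 mg/kg per day. KO PBS and KO BLM mice lacked Thy-1, a surface glycoprotein of fibroblasts and other cells, in every tissue through a germline deletion, and received the same injections under the skin of the back. The design text gives 21 days of treatment, and the methods give a shorter course of injections. Each mouse has its own number (159, 160 and 161 for WT PBS, 145, 146 and 147 for WT BLM, 136, 137 and 139 for KO PBS, 141, 143 and 144 for KO BLM) and was sequenced once. Library totals ran from 26473700 to 38890450 counts. Values are CPM, counts relative to the library total after TMM scaling in edgeR, and errors are SD over 3 mice. Genes were called where the quasi-likelihood test of edgeR gave a p, adjusted by the Benjamini-Hochberg method, under 0.05.

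Cells make cholesterol from acetyl-CoA. Enzymes of the mevalonate steps build isoprenoid units, squalene synthase joins them into squalene, and a series of enzymes closes the rings and trims the product to cholesterol. The proteins SREBP-1 and SREBP-2, encoded by Srebf1 and Srebf2, switch these genes on when sterols are scarce. Scap carries SREBP to the Golgi for cleavage, and Insig1 and Insig2 hold Scap in the endoplasmic reticulum when sterols are plentiful, while Insig1 is itself a target of SREBP. In skin, sebaceous glands, the epidermis and its barrier and the cells of the growing hair follicle all draw on this pathway.

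SREBP is known to bind sterol regulatory elements near the starts of these genes, often beside a CCAAT box bound by NF-Y. Promoter windows of 300 bases from RefSeq (GRCm38.p6, 250 bases before the start and 50 after) were given for 26 of the 30 members. The first 200 bases of 4 of these windows, all on the plus strand and ending 50 bases before the RefSeq start, are shown because their genes lead the results in WT mice: Hmgcs1 had the smallest p of the mevalonate genes, and Lss, Insig1 and Elovl6 had the largest fold changes of their roles. The stretches are Hmgcs1 at chr13:119690101-119690300, Lss at chr10:76531355-76531554, Insig1 at chr5:28071162-28071361 and Elovl6 at chr3:129532136-129532335. Capitals mark matches to the letters TCACNCCAC (a sterol regulatory element) and to CCAAT, on either strand, so that a CCAAT box on the other strand reads ATTGG.
Hmgcs1: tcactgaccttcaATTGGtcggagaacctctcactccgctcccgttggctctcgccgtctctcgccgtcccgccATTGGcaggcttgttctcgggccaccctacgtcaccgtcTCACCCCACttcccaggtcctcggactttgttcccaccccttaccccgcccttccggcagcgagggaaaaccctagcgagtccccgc
Lss: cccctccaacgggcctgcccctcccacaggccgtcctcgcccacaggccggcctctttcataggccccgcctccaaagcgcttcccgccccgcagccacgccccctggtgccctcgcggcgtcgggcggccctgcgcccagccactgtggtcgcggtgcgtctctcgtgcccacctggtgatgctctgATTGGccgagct
Insig1: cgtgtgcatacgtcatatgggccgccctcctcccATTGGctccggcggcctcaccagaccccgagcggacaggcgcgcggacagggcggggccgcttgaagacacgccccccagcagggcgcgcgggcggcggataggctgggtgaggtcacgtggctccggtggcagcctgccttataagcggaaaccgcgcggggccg
Elovl6: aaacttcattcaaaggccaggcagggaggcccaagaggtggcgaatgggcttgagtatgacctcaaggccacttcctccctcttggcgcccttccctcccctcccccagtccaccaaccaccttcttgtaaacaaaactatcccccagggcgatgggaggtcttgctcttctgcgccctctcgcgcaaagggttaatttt
Hmgcs1 was the 1 of 26 members whose window held the exact sterol element, beginning 137 bases before the start, and 1.44% of the 27025 genes with a window held it. The stretch of Elovl6 held neither marked motif. A CCAAT box stood in the windows of 22 of 26 members, against 41.1% of all genes. The Sp1 box GGGCGG was found in 21 of 26, against 38.2%, and the E-box CACGTG in 5 of 26, against 8.09%. The CCAAT box did not separate the members that were lower in WT BLM mice from the others, with 10 of 13 and 12 of 13 of those with a window. These are matches of letters on both strands, counted without regard to overlap, and no binding was measured.

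Thy1 itself was counted in every mouse. Its level was 104 to 149.6 CPM in WT PBS and 231 to 416 CPM in WT BLM mice, against 45.6 to 96.9 CPM in KO PBS and 84.7 to 128 CPM in KO BLM mice. Each KO mouse thus lay below the WT mice of its treatment, and counts per gene do not show which part of the gene the remaining reads came from. The mice also differed in genes of hair growth, of which 23 of 24 listed were in the table. The mean of this hair list was 9.51 to 10.07 log2 CPM in WT PBS and −0.45 to 3.48 in WT BLM mice. KO PBS mouse 136 (9.97) and KO BLM mouse 141 (9.03) stood with the WT PBS mice. The other KO PBS mice had −0.66 and 2.23, and the other KO BLM mice had 5.03 and 6.09. Krt71, an inner root sheath keratin, was at 12840 to 16071 CPM in WT PBS mice and at 0.600 and 47.0 CPM in KO PBS mice 137 and 139. Results that rest on mice 136 and 141 are therefore given with and without them. In bulk skin, fewer cells of a type and less RNA per cell cannot be told apart.

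In the skin of WT PBS mice, per kilobase of exon, the most abundant members were Hmgcs1 at 62.6 CPM per kb, Elovl6 at 61.6, Acly at 55.6, Fasn at 47.7 and Insig2 at 45.6. The least abundant were Fdps at 3.10, Idi1 at 3.11, Tm7sf2 at 3.74, Acaca at 5.13 and Ggps1 at 6.74 CPM per kb. The length is that of all exons of a gene merged, and several members share sequence with other genes, as given below. The order may depend on both. The 5 most abundant members thus came from the mevalonate, fatty acid and control genes, and none of them acts between squalene and sterol.

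The plot of members by mouse shows all 30 genes in the 12 mice, relative to the WT PBS mice.

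**Figure D1:**
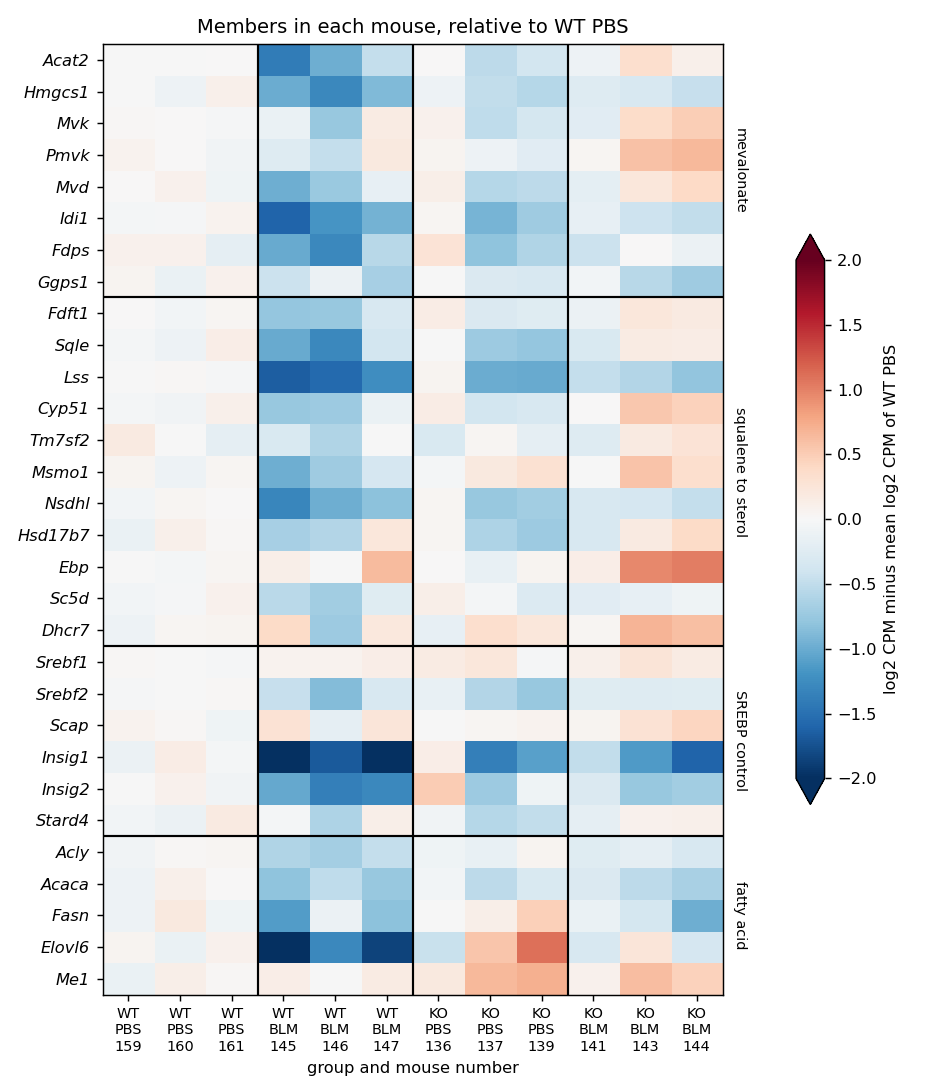
Heat map of the 30 members (rows, grouped by role) in 12 mice (columns, by group and mouse number), coloured by log2 CPM minus the mean log2 CPM of the 3 WT PBS mice, with colours capped at 2 either way. Values ran from −2.58 to 1.1, and the lowest, in Insig1 and Elovl6, are in the WT BLM columns.

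The first comparison asked what bleomycin did to the pathway in WT skin. Of 30 members, bleomycin-treated WT mice had 16 at a lower level and 0 at a higher level than WT PBS mice. Over all 18311 genes tested, 14.1% were called lower and 19.8% higher. DESeq2 also called 16 members lower, against 15.9% of the genes it tested. For 19 members every WT BLM mouse lay below every WT PBS mouse, against 28.7% of all genes tested. The median log2 fold change of the 30 members was −0.58, against 0.02 over all genes tested. By role, 4 of 8 mevalonate genes, 6 of 11 genes from squalene to sterol, 3 of 6 control genes and 3 of 5 fatty acid genes were called lower.

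Among the mevalonate genes, Hmgcs1, the cytosolic HMG-CoA synthase (chr13:119690379-119708260), had the smallest p. It was at 286, 268 and 309 CPM in the WT PBS mice (288 ± 20.8, SD, n = 3) and at 145, 117 and 155 CPM in the WT BLM mice (139 ± 19.7). The groups did not overlap, and the difference was 2.07-fold (log2 fold change −1.05, SE 0.16, adjusted p = 0.00431). Acat2, which joins acetyl-CoA units in the first step, fell by 0.90 on the log2 scale. Idi1, the isomerase of isoprenoid units, fell by 1.21, and Fdps, the farnesyl diphosphate synthase, fell by 0.93. The enzymes that phosphorylate and decarboxylate mevalonate were not called, with log2 fold changes of −0.19 for Mvk, −0.15 for Pmvk and −0.58 for Mvd. Ggps1, which makes geranylgeranyl diphosphate for a branch that leaves the sterol route, was not called either (−0.38, adjusted p = 0.140).

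Between squalene and sterol, Lss, the lanosterol synthase that closes the sterol rings (chr10:76531588-76557138), changed most. It was at 95.05, 97.6 and 94.1 CPM in WT PBS mice and at 30.6, 32.7 and 40.3 CPM in WT BLM mice. The highest WT BLM mouse thus lay far below the lowest WT PBS mouse, and the difference was 2.77-fold (log2 fold change −1.47, SE 0.26, adjusted p = 0.00561). Nsdhl, which removes a carboxyl group from the sterol, fell by 1.02 on the log2 scale, and Sqle, the squalene epoxidase, fell by 0.83. Msmo1, a sterol methyl oxidase, fell by 0.65, Fdft1, the squalene synthase, fell by 0.60, and Sc5d, a sterol desaturase, fell by 0.48. The 5 members that were not called were Cyp51 (−0.51, adjusted p = 0.0809), Tm7sf2 (−0.29), Hsd17b7 (−0.29), Dhcr7 (0.03) and Ebp (0.27). Dhcr7 and Ebp were the 2 with a fold change above 0.

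The control genes split. Insig1 (chr5:28071363-28078662) had the largest fold change of the 30 members. It was at 92.4, 111 and 97.5 CPM in WT PBS mice and at 16.7, 31.0 and 24.5 CPM in WT BLM mice, with no overlap, a 4.16-fold difference (log2 fold change −2.06, SE 0.41, adjusted p = 0.00822). Insig2 was at 157, 168 and 150.4 CPM in WT PBS and at 78.1, 61.5 and 64.6 CPM in WT BLM mice, 2.33-fold lower (log2 fold change −1.22, SE 0.26, adjusted p = 0.0102). Srebf2 was at 277, 279.6 and 285 CPM in WT PBS and at 204, 154 and 225 CPM in WT BLM mice. This was a smaller difference, 1.45-fold, close to the threshold (log2 fold change −0.53, SE 0.18, adjusted p = 0.0419). Srebf1 and Scap were not called. Srebf1 was at 158, 156 and 154 CPM in WT PBS and at 163, 163 and 171 CPM in WT BLM mice (log2 fold change 0.09, 95% interval −0.13 to 0.31). Every WT BLM mouse lay above every WT PBS mouse for Srebf1, by a small margin. Scap was at 141, 137 and 127 CPM in WT PBS and at 164, 119.8 and 160.5 CPM in WT BLM mice (log2 fold change 0.13, 95% interval −0.18 to 0.44). Stard4, which carries sterol between membranes, had a log2 fold change of −0.15 and was not called.

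Of the fatty acid genes, Elovl6, which lengthens palmitate (chr3:129532355-129638495), changed most. It was at 410.0, 360.0 and 419 CPM in WT PBS and at 87.7, 161 and 110.1 CPM in WT BLM mice, 3.31-fold lower (log2 fold change −1.73, SE 0.36, adjusted p = 0.00940). Acly, which splits citrate into acetyl-CoA for both routes, was at 280.1, 299.5 and 300.4 CPM in WT PBS and at 193, 183 and 209.8 CPM in WT BLM mice. The mice of a group lay close together for Acly, and the 1.5-fold difference was called (log2 fold change −0.59, SE 0.11, adjusted p = 0.00740). Acaca, the acetyl-CoA carboxylase, was at 81.3, 93.4 and 88.2 CPM in WT PBS and at 50.0, 61.6 and 51.8 CPM in WT BLM mice (log2 fold change −0.69, SE 0.15, adjusted p = 0.0101). Fasn, the fatty acid synthase, was at 482, 595 and 488 CPM in WT PBS and at 238, 481 and 295 CPM in WT BLM mice. WT BLM mouse 146 lay just below the lowest WT PBS mouse, and Fasn was not called (log2 fold change −0.62, SE 0.29, adjusted p = 0.113). Without mouse 146 it was called lower (log2 fold change −0.97, adjusted p = 0.0377). Me1, malic enzyme, a source of NADPH, was at 97.5, 116 and 109 CPM in WT PBS and at 118, 106 and 119 CPM in WT BLM mice (log2 fold change 0.09, 95% interval −0.28 to 0.47).

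The hair list moved with this comparison. All 23 of its genes had a lower level in every WT BLM mouse, 13 were called lower, and its summed level was 49917 to 72138.5 CPM in WT PBS and 58.1 to 856 CPM in WT BLM mice. With the mean of the hair list as a covariate, 0 of 30 members were called lower, when 0.0109% of all genes were, and the median log2 fold change was −0.41. In that fit the log2 fold change of Hmgcs1 was −0.83, of Lss −0.72, of Insig1 −0.72 and of Elovl6 −2.35. The hair list was lower in every WT BLM mouse than in every WT PBS mouse, so bleomycin and this difference cannot be told apart within WT mice. Of 12 skeletal muscle genes 11 were called higher, with summed levels of 6239 to 6966 CPM in WT PBS and 21099.6 to 42986 CPM in WT BLM mice. Of 12 macrophage genes 10 were called higher, with summed levels of 620.3 to 1200.5 CPM in WT PBS and 2562 to 3723 CPM in WT BLM mice. Of 10 sebaceous gland genes, 8 had a fold change below 0, 2 were called lower and 1 higher. Their mean was 4.83 to 5.15 log2 CPM in WT PBS and 3.92 to 4.62 in WT BLM mice. Their summed levels overlapped, at 1443 to 1729 CPM in WT PBS and 1168 to 1631 CPM in WT BLM mice. Mc5r, a sebocyte receptor gene, fell by 2.93 on the log2 scale and Awat2, a wax synthase gene, by 1.98. The gene called higher was Gal, which encodes the neuropeptide galanin, at 0 to 0.0329 CPM in WT PBS and 0.558 to 1.14 CPM in WT BLM mice. Of 12 dermal adipocyte genes 0 were called, of 10 epidermal genes 3 were called higher, and of 8 dermal fibroblast genes 4 were called higher. The part of these lists in the lower levels of the members was not tested apart from the hair covariate.

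The count of 16 depended on single mice through 6 members near the threshold. Without WT PBS mouse 159, WT PBS mouse 161 or WT BLM mouse 145 the count was 10, when 4.87%, 6.83% and 6% of all genes were called lower. Without WT BLM mouse 146, the same 6 were lost and Fasn was gained, and the share of all genes in that fit is not given here. The 6 members lost in each of these 4 fits were Fdps, Fdft1, Sqle, Msmo1, Sc5d and Srebf2. The other 10, Acat2, Hmgcs1, Idi1, Lss, Nsdhl, Insig1, Insig2, Acly, Acaca and Elovl6, were called lower in all 12 fits that left out 1 mouse.

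In Thy-1 KO mice the same comparison gave no call. Of 30 members, 0 were called between KO BLM and KO PBS mice, with 0.306% of all genes called, and DESeq2 called 0, with 5.95% of all genes called. At an unadjusted p under 0.05 there were 4 members, 3 higher and 1 lower, against 20% of all genes in either direction. These were Ebp (0.78), Pmvk (0.54), Cyp51 (0.51) and Fasn (−0.65), on the log2 scale. The fold change was above 0 for 20 of 30 members (median 0.14), and for 9035 of all 18311 genes tested. By role, 7 of 8 mevalonate genes and 9 of 11 genes from squalene to sterol had a fold change above 0, and all 5 fatty acid genes had one below 0. All 12 dermal adipocyte genes also had a fold change below 0 in this comparison (median −1.38), with 0 called by edgeR, 4 at an unadjusted p under 0.05 and 2 called by DESeq2, and their part was not tested. The plot of responses shows both genotypes side by side.

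**Figure D2:**
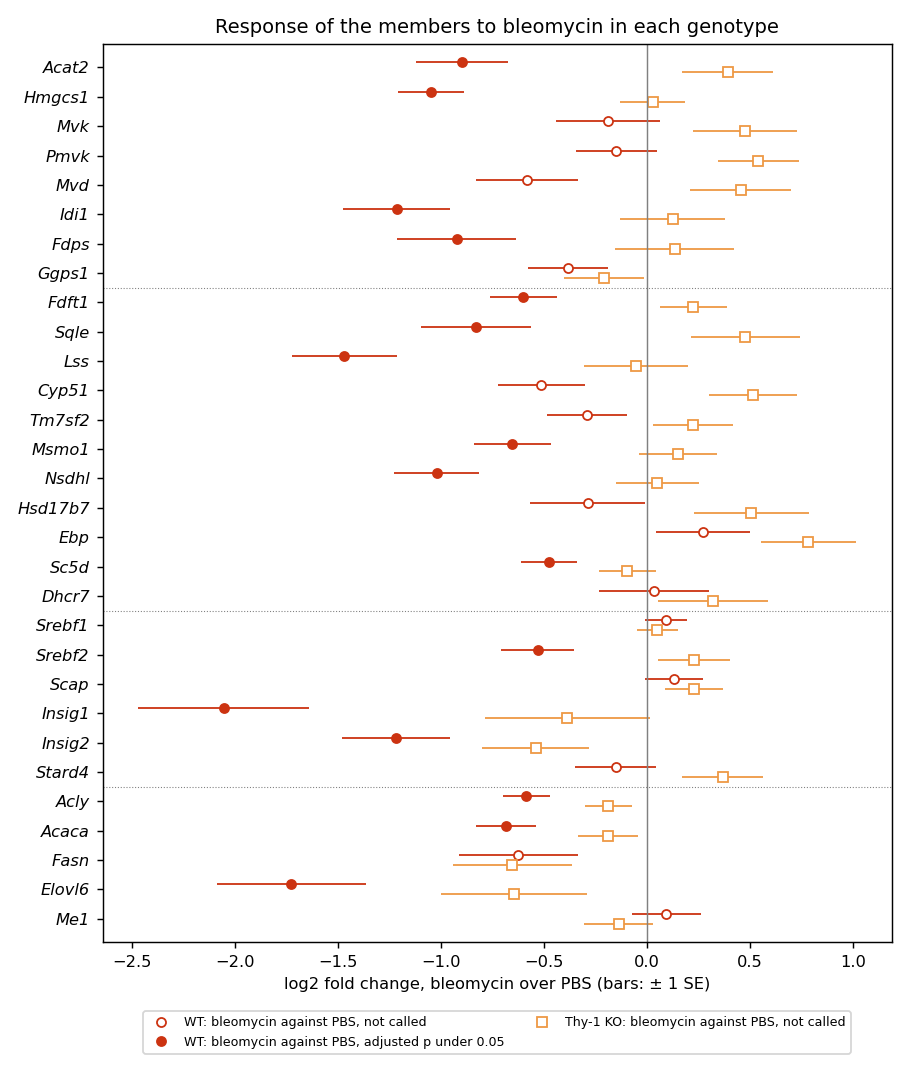
Log2 fold change of bleomycin over PBS (x axis) for each of the 30 members (y axis, in order of role), with bars of 1 SE, in WT mice (circles, filled where called) and in Thy-1 KO mice (squares, none called). The WT points reach −2.06 for Insig1, while the KO points lie between −0.65 and 0.78.

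The levels in single mice and the intervals of the difference were as follows. Lss was at 98.8, 48.1 and 47.7 CPM in KO PBS mice 136, 137 and 139 and at 68.7, 63.4 and 55.5 CPM in KO BLM mice 141, 143 and 144 (log2 fold change −0.05, 95% interval −0.61 to 0.50). Insig1 was at 109.8, 38.8 and 46.9 CPM in KO PBS and at 71.1, 45.4 and 33.0 CPM in KO BLM mice (log2 fold change −0.39, 95% interval −1.27 to 0.50). In both genes KO PBS mouse 136 stood at the level of the WT PBS mice and the other KO PBS mice did not. Hmgcs1 was at 268, 203 and 194 CPM in KO PBS and at 239, 231 and 208 CPM in KO BLM mice (log2 fold change 0.03, 95% interval −0.32 to 0.38). Elovl6 was at 291, 583 and 846 CPM in KO PBS and at 317, 468 and 315 CPM in KO BLM mice. For Elovl6, KO PBS mice 137 and 139 held the highest levels of all 12 mice, and mouse 136 lay below the WT PBS mice.

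Removing mice 136 and 141 changed this comparison. Without both, 8 members were called higher in KO BLM mice, when 13.5% of all genes were. They were Mvk, Pmvk, Mvd, Fdft1, Sqle, Cyp51, Hsd17b7 and Ebp, and the largest fold change among them was 1.03 on the log2 scale, for Ebp. Without mouse 141 alone, Pmvk and Ebp were called higher, when 3.34% of all genes were. Without mouse 136 alone, Elovl6 was called lower, when 4.79% of all genes were. With the hair list as a covariate, Insig2 was called lower, when 2.69% of all genes were. Each of these fits rests on 2 mice in at least 1 KO group, except that with the covariate.

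The remaining control and fatty acid genes were as follows in the KO groups. Insig2 was at 224, 95.6 and 149 CPM in KO PBS and at 129.99, 94.1 and 97.7 CPM in KO BLM mice. Srebf2 was at 253, 188 and 166 CPM in KO PBS and at 237, 234 and 238 CPM in KO BLM mice, which lay within 5 CPM of each other. Srebf1 was at 174, 182 and 153 CPM in KO PBS and at 167, 186 and 174 CPM in KO BLM mice. Across the 12 mice Srebf1 thus stayed between 153 and 186 CPM, the narrowest relative range of the control genes. Scap was at 134, 138 and 142 CPM in KO PBS and at 139.9, 165 and 181 CPM in KO BLM mice. Acly was at 275, 263 and 306 CPM in KO PBS and at 247, 259 and 236 CPM in KO BLM mice, and Acaca at 84.0, 60.6 and 70.9 and at 71.7, 61.1 and 56.0 CPM. Scap and Acaca overlapped between the groups. Fasn was at 516, 561 and 726 CPM in KO PBS and at 476, 407 and 263 CPM in KO BLM mice. The KO groups thus did not overlap for Fasn or, by a small margin, for Acly (adjusted p = 0.243 for Fasn). The share of all genes without overlap between the KO groups was not counted. Me1 was at 123, 168 and 176 CPM in KO PBS and at 113, 164 and 147 CPM in KO BLM mice.

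Between genotypes without bleomycin, 0 of 30 members were called in KO PBS against WT PBS mice, with 0.0655% of all genes called, and DESeq2 called 0, with 3.69% of all genes called. This comparison shares the WT PBS mice with the first. An unadjusted p under 0.05 was found for 4 members, against 20.4% of all genes. Of these, Me1 was higher (log2 fold change 0.54, adjusted p = 0.204), and Hmgcs1 (−0.37), Lss (−0.56) and Srebf2 (−0.48) were lower. Me1 was above, and Srebf2 below, the range of the WT PBS mice in all 3 KO PBS mice. The share of all genes that did so was not counted.

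Leaving out KO PBS mouse 136 changed this comparison. Mouse 136 lay above the WT PBS range in 11 members, within it in 14 and below it in 5. Mice 137 and 139 both lay below the WT PBS range in 19 members. Among them were all 8 mevalonate genes, Srebf2, Insig1, Insig2 and Stard4. Both mice lay above it in 4, which were Msmo1, Dhcr7, Elovl6 and Me1. The share of all genes outside the WT PBS range in these mice was not counted. Without mouse 136, 11 members were called, 9 lower and 2 higher, when 36.7% of all genes were called in either direction. Those called lower were Hmgcs1, Idi1, Fdps, Sqle, Lss, Nsdhl, Srebf2, Insig1 and Acaca, with the smallest p for Lss (adjusted p = 0.00132) and the largest fold change for Insig1 (−1.22, adjusted p = 0.0163). Those called higher were Elovl6 (0.85) and Me1 (0.68). Without both mouse 136 and mouse 141 the count was also 11, when 40.9% of all genes were called. The share of members called was thus near that of all genes in both fits. Mice 137 and 139 also had low levels of the hair list and high levels of the muscle list, 33092 and 28372 CPM, beside 8032 CPM in mouse 136.

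Under bleomycin, 29 of 30 members had a higher level in KO BLM than in WT BLM mice, against 8680 of all 18311 genes tested. Ggps1 was the exception (−0.03). The median log2 fold change of the 30 members was 0.54, against −0.03 over all genes tested. None was called by edgeR, with 0.0928% of all genes called. An unadjusted p under 0.05 was reached by 17 members, all higher, against 8% of all genes. DESeq2 called 8 members higher, against 1.53% of the genes it tested. These were Acat2, Hmgcs1, Idi1, Fdft1, Cyp51, Msmo1, Acly and Elovl6. For 16 members every KO BLM mouse lay above every WT BLM mouse, against 14.6% of all genes tested.

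The largest fold change was that of Elovl6, 3.06-fold (log2 fold change 1.61, SE 0.36, adjusted p = 0.166), at 315 to 468 CPM in KO BLM and 87.7 to 161 CPM in WT BLM mice. Msmo1 had the smallest p. It was at 127, 190.5 and 161 CPM in KO BLM and at 65.0, 78.1 and 102 CPM in WT BLM mice (log2 fold change 0.97, SE 0.19, adjusted p = 0.131). Its levels were 134, 119 and 132 CPM in WT PBS and 125, 147 and 159 CPM in KO PBS mice, so that the WT BLM mice were the lowest of the 12. Hmgcs1 (0.70, 95% interval 0.35 to 1.05), Lss (0.86, 0.30 to 1.42) and Insig1 (1.05, 0.16 to 1.94) did not overlap between the groups on the CPM scale, and their adjusted p were 0.170, 0.233 and 0.270. The plot of 6 members shows these levels in every mouse. The levels of Msmo1, Ebp and Cyp51 are given because of values already seen.

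**Figure D3:**
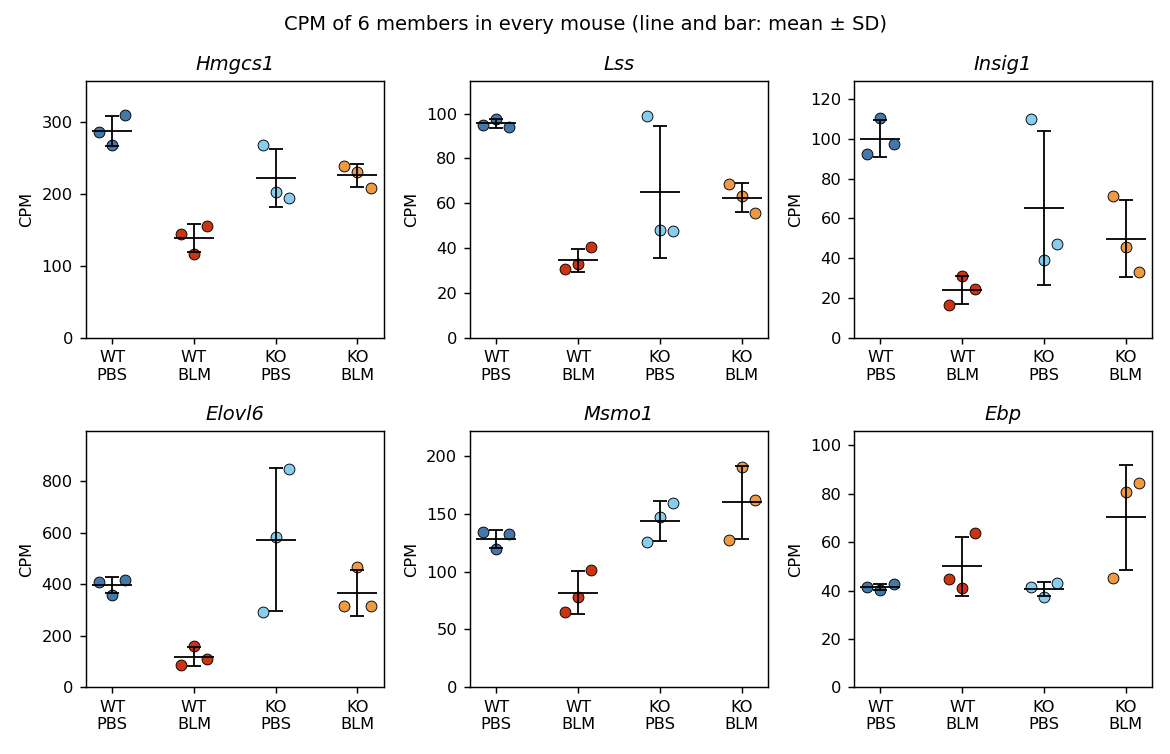
CPM (y axes, from 0) of Hmgcs1, Lss, Insig1, Elovl6, Msmo1 and Ebp in the 4 groups, 1 point for each of 3 mice in order of mouse number, with a line at the mean and a bar of 1 SD. In the first 5 panels the 3 WT BLM mice are the lowest of the 12, and in the Ebp panel KO BLM mice 143 and 144, at 80.9 and 84.5 CPM, are the highest.

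Mouse 136 belongs to neither of these groups, but it enters the estimate of spread that all groups share. Without it, 10 members were called higher in KO BLM mice, when 3.79% of all genes were. They were Acat2, Hmgcs1, Idi1, Fdft1, Sqle, Lss, Cyp51, Msmo1, Nsdhl and Elovl6. A fit of the KO BLM and WT BLM mice alone also leaves out mouse 136. It called 0 members, and its share of all genes called is not given here. Without mice 136 and 141, 12 members were called higher, when 2.52% of all genes were. The levels of the hair list were higher in each KO BLM than in each WT BLM mouse, 3676 to 38102.5 CPM in sum against 58.1 to 856 CPM. With its mean as a covariate the median log2 fold change of the members was 0.40 and 0 members were called. The smallest adjusted p was that of Msmo1, 0.0771 (log2 fold change 1.19). The share of all genes called in that fit is not given here. The sebaceous gland list averaged 5.18 to 5.62 log2 CPM in KO BLM and 3.92 to 4.62 in WT BLM mice, and its part in the difference was not tested.

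KO BLM mice 143 and 144 lay outside the WT PBS range in both directions. The share of all genes outside that range was not counted for the KO BLM mice. Both lay above the WT PBS range in the same 15 members and below it in the same 12. Those above were Acat2, Mvk, Pmvk, Mvd, Fdft1, Sqle, Cyp51, Tm7sf2, Msmo1, Hsd17b7, Ebp, Dhcr7, Srebf1, Scap and Me1. Those below were Hmgcs1, Idi1, Ggps1, Lss, Nsdhl, Sc5d, Srebf2, Insig1, Insig2, Acly, Acaca and Fasn. Cyp51, the lanosterol demethylase, was at 164 and 156 CPM in these mice, against 108 to 122 CPM in WT PBS mice, while Lss, which makes its substrate, was at 63.4 and 55.5 CPM, against 94.1 to 97.6 CPM. KO BLM mouse 141 lay above the range in 2 members, Ebp and Srebf1, and below it in 21. In the WT BLM mice, 19 members lay below the range in all 3 mice, against 28.7% of all genes tested, and 1, Srebf1, lay above it.

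The plot of members and hair genes shows how the levels of both lay in each mouse.

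**Figure D4:**
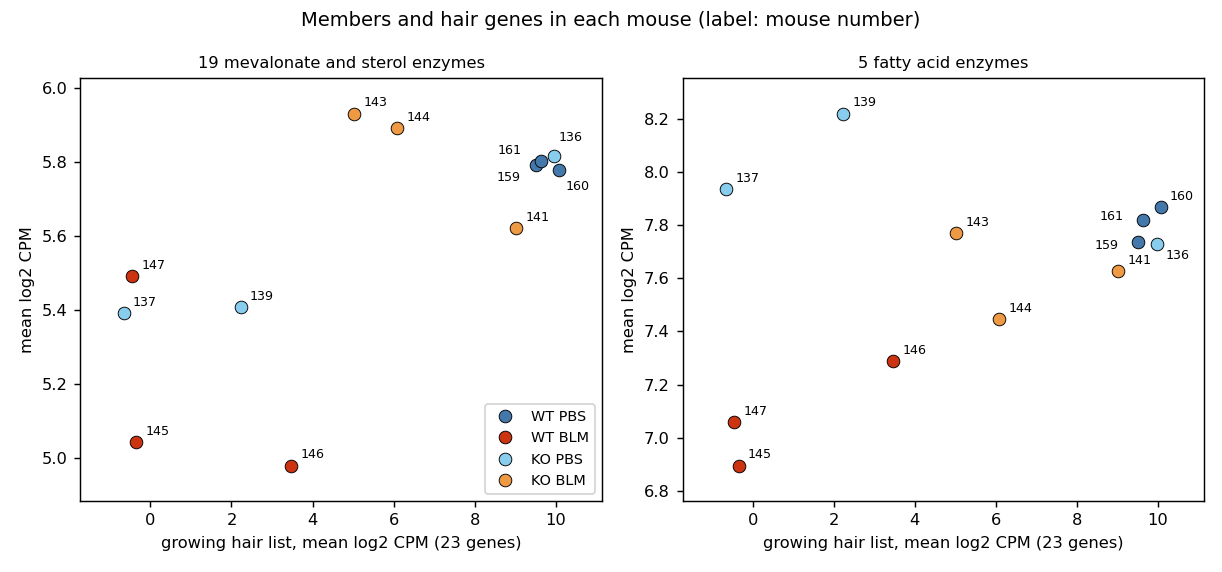
Mean log2 CPM of the 19 mevalonate and sterol enzymes (left, y axis) and of the 5 fatty acid enzymes (right, y axis) against the mean log2 CPM of 23 hair genes (x axis), 1 point a mouse, labelled by mouse number and coloured by group. On the left, KO BLM mice 143 and 144 (5.93 and 5.89) lie above the WT PBS mice (5.78 to 5.8) at lower hair levels, and on the right KO PBS mice 137 and 139 (7.93 and 8.22) lie above all others.

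In that plot the 19 enzymes averaged 5.82 log2 CPM in KO PBS mouse 136 and 5.39 and 5.41 in mice 137 and 139. Mouse 136 differed from these 2 mice in the hair and muscle lists alike. The macrophage list differed too, at 653 CPM in sum in mouse 136 and 2307 and 1835 CPM in mice 137 and 139. The part of these lists in the enzyme levels was not tested. WT BLM mice 145, 146 and 147 had 5.04, 4.98 and 5.49. Mouse 146 had a higher hair level than mice 137 and 147 and a lower level of the enzymes. For the fatty acid enzymes, mice 137 and 139 had low hair levels and the highest means, while the WT BLM mice, with hair levels in the same region, had the lowest, 6.90 to 7.29. The dermal adipocyte genes averaged 7.35 and 7.65 log2 CPM in mice 137 and 139, the highest of the 12 mice, with WT BLM mouse 146 next at 7.21. By summed CPM mouse 146, at 3767, lay between mouse 137, at 3631, and mouse 139, at 4419. By mean log2 CPM the sebaceous gland genes were also highest in mice 137 and 139, at 5.96 and 6.03, against 3.92 to 5.62 in the other mice. By summed CPM these genes were highest in KO BLM mice 143 and 144, at 3360 and 3410, against 2261.5 and 2683 in mice 137 and 139. The part of these cell types in the levels of the fatty acid enzymes was not tested.

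Subtracting the WT response from the KO response gave a value above 0 for 27 of 30 members, against 8633 of all 18311 genes tested. The median was 0.72 for the members, against −0.05 over all genes tested. No member was called by edgeR, and of all genes 0% were. An unadjusted p under 0.05 was reached by 16 members, against 13.6% of all genes, and DESeq2 called 13, against 7.65% of the genes it tested. The smallest adjusted p among members was 0.0702, shared by Hmgcs1 (1.08, 95% interval 0.58 to 1.57) and Acat2 (1.29, 0.59 to 1.98). The values were 1.42 for Lss, 1.34 for Idi1, 1.31 for Sqle and 1.67 for Insig1, with adjusted p of 0.0713, 0.0734, 0.0778 and 0.0988. Fasn (−0.03), Srebf1 (−0.04) and Me1 (−0.23) were the 3 members below 0. Without mouse 136, 15 members were called, all with a higher response in KO, when 20.4% of all genes were, and without mice 136 and 141, 20 were, when 19.7% of all genes were. With the hair list as a covariate the median was 0.49, and 26 members were above 0 and 0 called. The share of all genes called with this covariate is not given here. The value was lower in that fit for Insig1 (0.01), Lss (0.51), Hmgcs1 (0.80) and Acat2 (1.03), and higher for Elovl6 (1.98), Dhcr7 (1.31) and Msmo1 (1.27).

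Neighbouring genes of the pathway were counted in the same way in WT mice, where 19.8% of all genes tested were called higher and 14.1% lower. No difference between these lists and the members was tested. Of 16 genes for sterol uptake, storage and export, 7 were higher and 2 lower in WT BLM mice. Lipa, the lysosomal acid lipase that frees stored cholesterol, rose by 1.94 on the log2 scale, and Ch25h, which hydroxylates cholesterol, rose by 2.62. The macrophage genes above were higher in the same mice, and their part in this was not tested. Of the 2 that were lower, Soat1, which esterifies cholesterol, fell by 0.98, and Mylip, an E3 ligase for lipoprotein receptors, fell by 0.43. Of 23 tested genes of fatty acid elongation, desaturation and supply, 6 were lower and 2 higher. Elovl3, an elongase of skin lipids, fell by 2.06, and Hacd3, a dehydratase of the elongation cycle, fell by 0.68, while Hacd1, its muscle counterpart, rose by 1.94 and Mlxipl, a glucose-sensing transcription factor, rose by 1.59. Among 10 genes of SREBP cleavage and sterol-regulated turnover 0 were called by edgeR, with 4 at an unadjusted p under 0.05 and 2 called by DESeq2. Among 7 helpers of the sterol steps, Lbr, which holds a sterol reductase domain, fell by 1.63 and Cyb5r3, which feeds electrons to several of these enzymes, rose by 0.50. Of 14 genes of the isoprenoid branches 1 was lower, Fntb, a farnesyltransferase subunit, which fell by 0.76.

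Between KO BLM and WT BLM mice, Elovl3 was the 1 gene of these neighbouring lists that was called. It was at 68.9, 80.3 and 55.4 CPM in KO BLM, at 8.30, 17.7 and 20.4 CPM in WT BLM, at 72.0, 58.0 and 63.0 CPM in WT PBS and at 44.3, 27.2 and 41.7 CPM in KO PBS mice. The WT BLM mice were the lowest of the 12, and the log2 fold change between the BLM groups was 2.14 (SE 0.31, adjusted p = 0.0421).

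Some members share sequence with other genes, and how the authors counted such reads is not given in the sources used here. Of the transcript of Acat2, 65.6% was at least 95% identical to Acat3, of Acaca 64.3% to Gm5182, of Me1 49.8% to Gm7049 and of Fdft1 33.7% to Gm6781. These 4 copies had at most 0.428 CPM in any mouse, which does not show whether reads matching both a copy and its member were counted. The transcript of Acat2 also shares 19.8% of its bases with Tcp1, a chaperonin gene, which was at 194 to 279 CPM over the 12 mice, above the 16.2 to 53.6 CPM of Acat2. Fdft1 also shares 18.3% of its exon bases with Ctsb on the other strand, and Ctsb, a cathepsin gene, was at 1013 to 2023 CPM over the 12 mice. Fdps shares 26.7% of its exon bases with Gm43738 on the same strand, and up to 9.69% of its transcript with each of several pseudogenes. Of the transcript of Idi1, 22.6% was at least 95% identical to the pseudogene Gm13502 and 22.5% to Gm35570. For Ggps1 it was 21.3%, to Gm5630. The levels of these pseudogenes are not given here. Sc5d (chr9:42251595-42264256) lies 1.78 Mb from Thy1, the closest of the 3 members on that chromosome, before Me1 at 42.5 Mb and Scap at 66.3 Mb. Sc5d was at 62.0, 63.4 and 68.3 CPM in WT PBS, 44.6, 39.8 and 54.8 CPM in WT BLM, 69.8, 62.6 and 53.4 CPM in KO PBS and 55.0, 57.9 and 61.0 CPM in KO BLM mice. Its log2 fold change between genotypes was −0.06 in PBS mice (95% interval −0.36 to 0.24) and 0.32 in BLM mice (0.02 to 0.63, adjusted p = 0.288).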

How the data were processed

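Bulk RNA-Seq counts of skin from 12 mice were used, grouped by the titles in the labels. The authors prepared TruSeq stranded mRNA libraries, sequenced read pairs, deposited unnormalized read counts per gene in 12 columns headed by mouse number, and tested them with DESeq2. The submitters' processing notes name GRCm38.p6 and MultiQC 1.7. The aligner, the counting tool, the annotation and the use of strand are not given in the sources used here.

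Library totals had a median of 31494965 counts. A count was present for 34689 genes, and filterByExpr (minimum count 10, minimum total 15) kept 18311 of them. Counts were fitted in edgeR 4.0.16 (R 4.3.3) with TMM factors, 4 group means and all 12 mice. 5 contrasts were tested by quasi-likelihood, with Benjamini-Hochberg adjustment over all genes tested and a threshold of 0.05. The biological coefficient of variation was 34.9%, so the spread between mice and not only depth limits the precision. Each mouse was taken as a replicate, and nothing in the labels gives litter or batch. A two-sided exact permutation test of 3 against 3 mice cannot go below 0.1 and was not used. Mean log2 CPM used a prior count of 2. The procedure was tested on simulated data.

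The members, the gene lists and the alternatives were chosen with earlier results of these data known. Every member is accounted for by its role. Values of every mouse are given for at most 3 members per contrast and direction with the smallest p among those called, for Srebf1, Srebf2, Scap, Insig1 and Insig2, for the 5 fatty acid genes and for members on chromosome 9. In the neighbouring lists at most 2 called genes per contrast and direction are named. Alternatives were DESeq2 1.42.0, RLE and upper-quartile normalization, no filter, a mean of at least 1 CPM, the groups compared alone, the mean of the hair list as a covariate, and leaving out mice.

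Gene positions, exon lengths and shared sequence came from GENCODE M21 (GRCm38), with all 30 members matched by symbol, and blastn hits of at least 100 bases and 95% identity. Promoter windows came from RefSeq.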

Additional observations from a re-analysis of the deposited data

How the results depend on the processing

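No paired analysis was made, because the labels give no litter or other pairing of the mice. The count of members called between WT BLM and WT PBS mice was 16, and 10 to 18 over the 12 fits that left out 1 mouse. The share of all genes called where the count was 18 is not given here. With the hair list as a covariate the count was 0, when 0.0109% of all genes were called lower. All 16 members kept a negative fold change in that fit without passing the threshold, and the cause was not tested. Of 16 members, 15 were called without the filter on low counts, and all 16 under each of the other alternatives that used every mouse. All 16 were also called without mice 136 and 141, where the count was 19 and the share of all genes is not given here. Leaving out 1 mouse kept 163 of 192 calls, and none reversed. Between KO BLM and KO PBS mice the count was 0, with 0 to 2 over the fits without 1 mouse. It was 1 with the hair covariate, when 2.69% of all genes were called lower. It was 8 without mice 136 and 141, when 13.5% of all genes were called higher. Between KO PBS and WT PBS mice it was 0. It was 11 without mouse 136, when 36.7% of all genes were called, and 0 in the other 11 fits without 1 mouse. Without mice 136 and 141 it was 11, when 40.9% of all genes were called. Between KO BLM and WT BLM mice it was 0, also with the groups compared alone, and 0 to 10 over the fits without 1 mouse. The 10 came without mouse 136, when 3.79% of all genes were called higher. It was 8 by DESeq2, when 1.53% were called higher, and 12 without mice 136 and 141, when 2.52% were. For the difference of responses it was 0, with 0 to 15 over the fits without 1 mouse. The 15 came without mouse 136, when 20.4% of all genes were called higher. It was 13 by DESeq2, when 7.65% were called higher, and 20 without mice 136 and 141, when 19.7% were. The median of 0.72 became 0.49 with the hair covariate. A fit of the difference with the groups compared alone could not be had, since it needs all 4. The groups hold 3 mice each, and the KO groups 2 each without mice 136 and 141.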
